A study of Mus musculus with 16 samples.

Results

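A group of 10 genes of mast cells and basophils was followed across the 16 libraries of the series: the receptors Cd200r3, Fcer1a, Ms4a2 and Il1rl1, the adaptor Lat2, and the granule proteases Cpa3, Cma1, Tpsb2, Mcpt8 and Gzmb. They are 10 of the 30141 genes in the count tables, matched by symbol, and all 10 passed the filter on low counts. The members were selected on measured values of these same libraries, namely their levels and differences between azacitidine and NaCl and between genotypes. Their values in those comparisons are therefore a description and carry no test.

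RNA was sequenced from LSK cells, the lineage-negative, Sca1-positive and Kit-positive cells of bone marrow, which include haematopoietic stem cells and multipotent progenitors. The donors were WT mice (mouse DNMT3A +/+) or mice with a DNMT3A R882H knock-in, which carries human DNMT3A with the mutation behind a stop cassette at the mouse locus and keeps a mouse WT allele. Donors received 15 µg per g of poly(I:C) on 3 days, and the labels also name a schedule of 400 µg per injection without saying which animals had it. This agent drives Mx1-Cre, an interferon-responsive recombinase that removes the cassette. Donors with and without Mx1-Cre were used, and the labels do not tie Cre status to single libraries. After 4 weeks donor marrow was mixed 1:1 with WT competitor marrow and transplanted. The labels do not say whether the sorted cells were donor cells only. Recipients were given azacitidine, a nucleoside analogue that inhibits DNA methyltransferases, at 2.5 mg per kg, or 0.9% NaCl, over 2 weeks with 5 days on and 2 days off. The WT groups numbered 4 libraries under NaCl and 3 under azacitidine, and the R882H groups 4 and 5. The labels give no age. They do not say that replicates were separate recipients, so the spread between them may be partly technical.

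Mast cells and basophils are granulocytes of allergic and antiparasite responses. Both carry the high-affinity IgE receptor, whose α chain (Fcer1a) binds IgE and whose β chain (Ms4a2) amplifies the signal together with a shared γ chain (Fcer1g). Crosslinking of the receptor leads through the kinases Lyn and Syk and through adaptors such as Lat and Lat2 to the release of granules filled with histamine and proteases. Both lineages arise in bone marrow from progenitors that express Gata2. Connective tissue mast cells complete their chymase and tryptase stores after leaving the marrow, and basophils complete theirs within it.

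Promoter sequence was available for 8 of the 10 genes, in 9 windows from 250 bases before to 50 bases after a start site (RefSeq, GRCm38.p6). The stretches before the start are shown for the genes with a GATA motif, the letters that Gata1 and Gata2 bind, because it occurred in more of the windows than the other motifs searched. By gene it occurred in 6 of 8, as did the RUNX letters. Capitals mark the motif, searched as AGATAA, as TGATAA, as AGATAG or as TGATAG on both strands. Cd200r3 is at chr16:44943428-44943677 on the plus strand, Cma1 at chr14:55944676-55944925 on the minus strand and Cpa3 at chr3:20242182-20242431 on the minus strand. Fcer1a is at chr1:173227230-173227479 and Ms4a2 at chr19:11623720-11623969, both on the minus strand. Il1rl1, which has 2 start sites, is shown for the upstream one, at chr1:40429320-40429569 on the plus strand.
Cd200r3: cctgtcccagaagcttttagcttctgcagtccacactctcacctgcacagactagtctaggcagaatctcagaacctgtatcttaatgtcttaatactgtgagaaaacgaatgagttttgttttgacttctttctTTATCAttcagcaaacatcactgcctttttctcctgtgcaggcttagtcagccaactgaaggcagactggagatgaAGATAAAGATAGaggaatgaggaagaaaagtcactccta
Cma1: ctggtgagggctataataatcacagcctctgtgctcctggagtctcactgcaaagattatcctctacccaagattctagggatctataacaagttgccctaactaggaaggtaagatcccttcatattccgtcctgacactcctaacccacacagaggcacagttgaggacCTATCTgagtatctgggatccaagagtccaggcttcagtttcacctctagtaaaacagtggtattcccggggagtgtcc
Cpa3: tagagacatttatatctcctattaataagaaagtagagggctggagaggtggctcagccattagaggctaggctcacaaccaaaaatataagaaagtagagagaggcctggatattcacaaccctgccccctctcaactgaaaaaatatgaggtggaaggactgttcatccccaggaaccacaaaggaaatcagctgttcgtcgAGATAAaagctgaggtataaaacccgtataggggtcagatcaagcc
Fcer1a: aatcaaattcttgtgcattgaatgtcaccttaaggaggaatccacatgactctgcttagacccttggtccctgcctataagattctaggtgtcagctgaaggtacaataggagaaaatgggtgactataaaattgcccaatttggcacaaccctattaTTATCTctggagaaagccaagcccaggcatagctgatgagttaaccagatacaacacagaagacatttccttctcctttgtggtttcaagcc
Ms4a2: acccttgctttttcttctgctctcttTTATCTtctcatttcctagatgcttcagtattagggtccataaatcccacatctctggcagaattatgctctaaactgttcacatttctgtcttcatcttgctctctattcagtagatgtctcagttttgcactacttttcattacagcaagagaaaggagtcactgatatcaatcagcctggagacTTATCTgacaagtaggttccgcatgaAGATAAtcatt
Il1rl1: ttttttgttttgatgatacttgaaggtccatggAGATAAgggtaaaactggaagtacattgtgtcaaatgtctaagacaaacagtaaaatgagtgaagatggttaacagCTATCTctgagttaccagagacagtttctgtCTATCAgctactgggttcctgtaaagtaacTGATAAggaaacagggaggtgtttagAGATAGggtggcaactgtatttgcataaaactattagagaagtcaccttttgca

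The GATA letters occurred in 7 of the 9 windows, against 29.8% of the 32851 windows of the same length in the table. Il1rl1 had 5 matches before its upstream start, and Cd200r3 and Ms4a2 had 3 each. In Cd200r3 they began 115, 39 and 33 bases before the start, and in Ms4a2 224, 37 and 11 bases before it. Cma1, Cpa3 and Fcer1a had 1 match each, at 79, 46 and 92 bases before the start. The RUNX letters TGTGGT occurred in 6 of the 9 windows, against 16.8% of all. The PU.1 letters GAGGAA occurred in 4, against 28.3%, and the MITF E-box, CACGTG or CATGTG, in 1, against 20.4%. None of these motifs contains another. Gzmb and Mcpt8, both without the GATA letters, each had 2 RUNX matches. All 9 windows were poor in CG dinucleotides, the sites that DNMT3A methylates, with 0 to 3 each. The median over all windows was 7, and 31.4% of them had 3 or fewer. A match describes letters and is not evidence of binding, and DNA methylation was not analysed here.

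Levels are in CPM, the counts of a gene relative to the TMM-scaled library size from edgeR, and levels of different genes are compared in the deposited FPKM, which also divide by length. Total counts ran from 35860445 to 56012766 per library. The sort genes were present in every library, Kit at 410 to 1226 CPM and Ly6a, which encodes Sca1, at 30.6 to 275.5 CPM. In both NaCl groups Kit was lower in replicates 1 and 2, at 409.9 to 665.6 CPM, than in replicates 3 and 4, at 926.3 to 1226 CPM. Mouse Dnmt3a stood at 62.9 to 145.6 CPM and cannot check the labels, since its counts do not show the mutation. Some libraries stood apart. R882H with NaCl replicate 1 had a summed level of 12 T cell genes of 300.5 CPM, against 38.1 to 96.7 CPM in the 12 libraries of the other 3 groups. R882H with NaCl replicate 2 had a summed level of 12 megakaryocyte and erythroid genes of 10990 CPM. WT with azacitidine replicate 2 had the highest sum of 14 neutrophil and monocyte genes, 11630 CPM. Repeat families held 10.1% of the counts in WT with azacitidine replicate 1 and 6.81% in R882H with NaCl replicate 1. In the other libraries they held 2.97% to 5.35%.

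The label mast cell was only partly borne out by further defining genes. The connective tissue mast cell genes Mcpt4 and Mrgprb2 were at 0 counts in all 8 NaCl libraries. The mucosal mast cell proteases Mcpt1 and Mcpt9 had 2 and 1 counts over the 16 libraries together. Genes that progenitors also use were well above these levels. Hdc, which makes histamine, stood at 7.33 to 56.3 CPM and Fcer1g at 42.9 to 129 CPM. Slc45a3, from the same list of granule and mediator genes as Mcpt4, was also seen in every library, at 2.69 to 29.2 CPM.

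**Figure D1:**
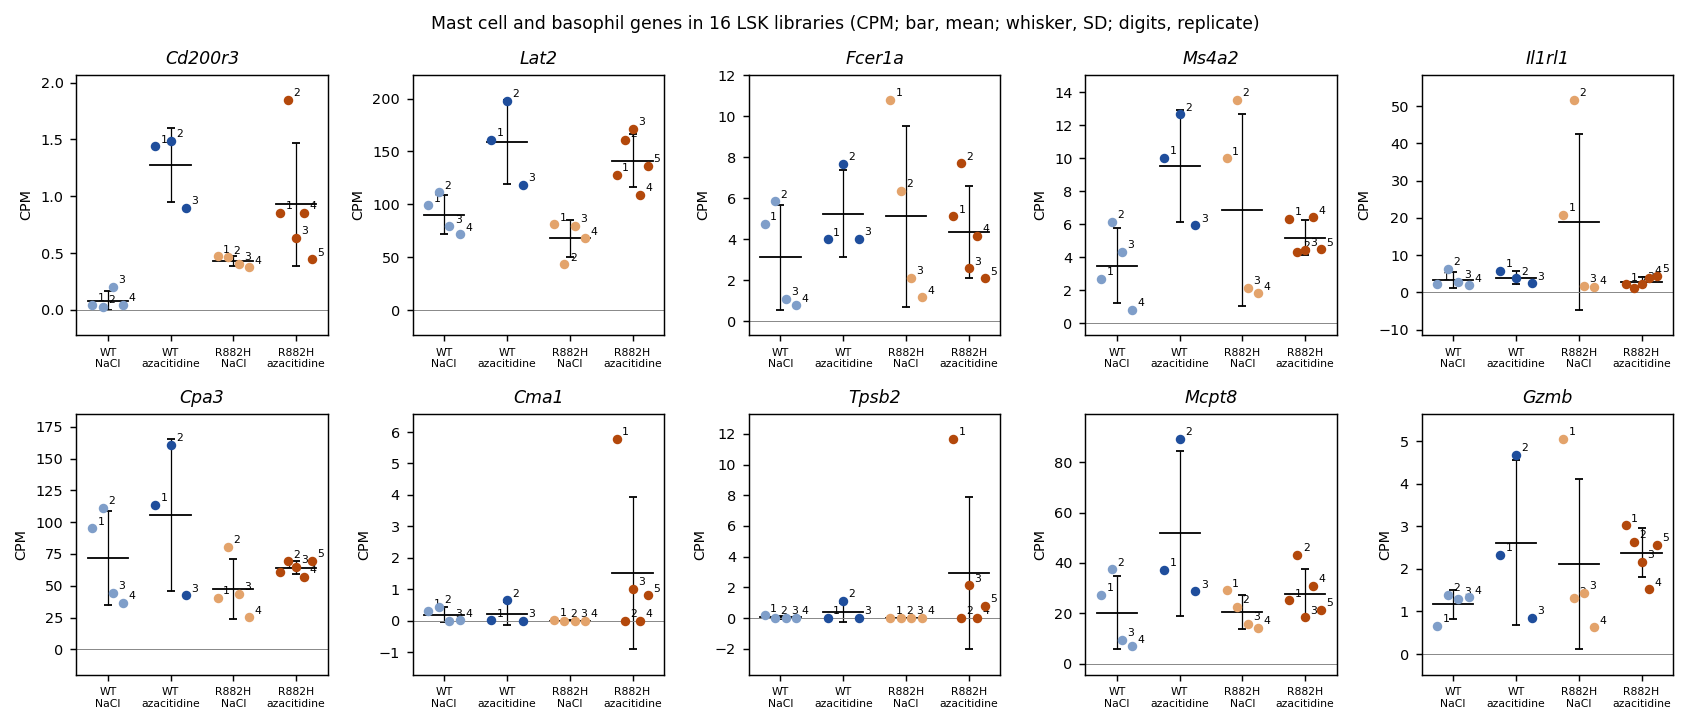
CPM (y axis, linear, own scale per gene) of the 10 genes in each library of the 4 groups (x axis). Points are libraries with their replicate number, bars are means and whiskers SDs, which pass below 0 where 1 library holds most of a group's level. Lat2 in both genotypes and Cd200r3 in WT show treated libraries above all NaCl libraries of the same genotype, while the high values of Il1rl1, Cma1 and Tpsb2 sit in 1 to 3 libraries.

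Cd200r3 (ENSMUSG00000036172, chr16:44943678-44981380, GRCm38), an activating receptor of the CD200R family on mast cells and basophils, was nearly silent in WT with NaCl and higher in each of the other 3 groups. The WT NaCl libraries held 0.0470, 0.0267, 0.203 and 0.0468 CPM, which rest on 2, 1, 8 and 2 counts. The WT azacitidine libraries held 1.44, 1.49 and 0.898 CPM. Every treated WT library was above every WT NaCl library. The means were 0.0808 ± 0.0818 (SD, n = 4) and 1.28 ± 0.327 CPM (SD, n = 3), a log2 difference of 3.94 (SE 0.60), which was 4.88 without WT with NaCl replicate 3. In R882H the NaCl libraries already lay close together, at 0.472, 0.462, 0.407 and 0.375 CPM. The R882H azacitidine libraries held 0.853, 1.85, 0.635, 0.856 and 0.444 CPM. Of these, 4 were above every NaCl library of R882H and replicate 5 lay within their range. The log2 difference was 1.11 (SE 0.48). R882H with NaCl was above WT with NaCl in 4 of 4 libraries, with a log2 difference of 2.37 (SE 0.58). Under azacitidine the genotypes overlapped, at a log2 difference of -0.45 (SE 0.50) for R882H against WT. The response in R882H minus that in WT was -2.82 (SE 0.75) on the log2 scale. In bulk RNA, fewer cells of a type and less RNA per cell cannot be told apart, for this gene and for those that follow.

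The neighbours of Cd200r3 within 300000 bases include 3 family members. Cd200r4, also a receptor of the activating type, stood at 2.17 ± 0.464 CPM in WT with NaCl (SD, n = 4), and its 3 WT azacitidine libraries ranged from 1.31 to 10.2 CPM and overlapped the controls. In R882H it stood at 3.15 ± 1.42 CPM with NaCl and 3.87 ± 1.41 with azacitidine (SD, n = 4 and 5). Cd200r1, the inhibitory member, had means from 13.03 to 17.6 CPM over the 4 groups. Cd200r2 had 45 counts in all.

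Lat2 (ENSMUSG00000040751, chr5:134600022-134615025), a transmembrane adaptor that is phosphorylated after IgE receptor or Kit engagement and is also used by B cells, was higher with azacitidine in both genotypes. The R882H NaCl libraries held 81.1, 43.2, 79.8 and 67.8 CPM and the R882H azacitidine libraries 128, 161, 171, 109 and 136 CPM. The WT NaCl libraries held 99.2, 111, 79.2 and 71.5 CPM and the WT azacitidine libraries 161, 198 and 119 CPM. Within each genotype the groups did not overlap. The log2 difference was 1.05 (SE 0.21) in R882H and 0.82 (SE 0.24) in WT, and the difference between these responses was 0.24 (SE 0.32). Genotypes overlapped under both treatments. Lat2 counts are uncertain in origin, since 952 of its 2621 exon bases, 36.3%, are covered by exons of Rfc2, a DNA replication factor C subunit on the opposite strand, and the strand setting of the counting is not given in the sources used here. Rfc2 stood at 285.6 to 520.2 CPM, and its log2 difference between azacitidine and NaCl was 0.28 (SE 0.16) in R882H and -0.14 (SE 0.18) in WT. The R882H groups of Rfc2 did not overlap either, as was so for 1.57% of all genes. They ranged from 285.8 to 357.3 CPM with NaCl and from 361.8 to 422.9 CPM with azacitidine. Its WT groups overlapped. The part of shared reads in the Lat2 difference was not tested.

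**Figure D2:**
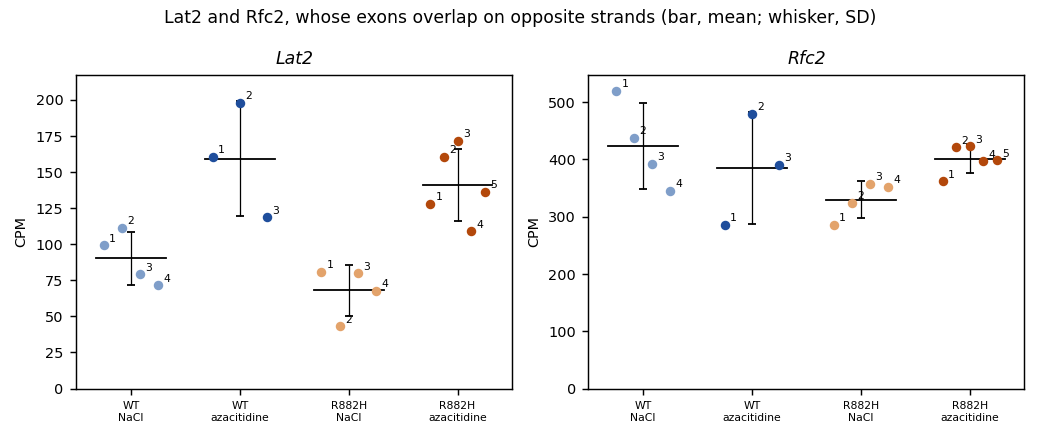
CPM (y axis, from 0) of Lat2 and of Rfc2, whose exons overlap Lat2 on the opposite strand, in each library of the 4 groups (x axis); bars are means and whiskers SDs. Treated Lat2 libraries sit above all NaCl libraries of their genotype, with means of 141 against 68.0 CPM in R882H and 159 against 90.3 CPM in WT, and the Rfc2 groups overlap in WT, while in R882H its treated libraries sit just above the NaCl ones.

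The IgE receptor chains varied more between libraries of a group than between groups. Fcer1a (ENSMUSG00000005339, chr1:173221284-173227214) held 4.74, 5.84, 1.09 and 0.773 CPM in WT with NaCl and 4.00, 7.69 and 4.03 CPM in WT with azacitidine. In R882H it held 10.8, 6.37, 2.11 and 1.17 CPM with NaCl and 5.12, 7.71, 2.59, 4.17 and 2.10 CPM with azacitidine. In both NaCl groups replicates 1 and 2 were several times above replicates 3 and 4, and the treated groups overlapped the controls. The log2 difference was 0.75 (SE 0.74) in WT and -0.23 (SE 0.65) in R882H. The R882H value turned to 0.43 without R882H with NaCl replicate 1, the library with the high T cell sum. Among libraries numbered 1 and 2 alone the differences were 0.12 in WT and -0.42 in R882H, and among those numbered 3 and above 2.10 and 0.84. Only 1 treated WT library, replicate 3, is numbered 3 or above, so the WT value of 2.10 rests on it.

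Ms4a2 (ENSMUSG00000024680, chr19:11615523-11623719) held 2.70, 6.13, 4.33 and 0.796 CPM in WT with NaCl and 10.02, 12.6 and 5.93 CPM in WT with azacitidine. In R882H it held 9.98, 13.5, 2.15 and 1.81 CPM with NaCl and 6.31, 4.28, 4.45, 6.42 and 4.47 CPM with azacitidine. Of the treated WT libraries, 2 of 3 were above all WT controls, and the 5 treated R882H libraries fell between the high and the low pair of their controls. The log2 difference was 1.45 (SE 0.65) in WT and -0.40 (SE 0.57) in R882H, which turned to 0.16 without R882H with NaCl replicate 2. In R882H it was -1.15 among libraries numbered 1 and 2 alone and 1.35 among those numbered 3 and above. The third chain, Fcer1g, is not particular to these cells. It stood at 63.9 ± 22.3 and 98.1 ± 37.7 CPM in WT with NaCl and azacitidine (SD, n = 4 and 3), and at 62.6 ± 20.3 and 57.4 ± 16.7 CPM in R882H (SD, n = 4 and 5).

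Il1rl1 (ENSMUSG00000026069, chr1:40429570-40465415) encodes ST2, the receptor for interleukin-33, found on mast cells, basophils, group 2 innate lymphoid cells and some T cells. Its R882H NaCl libraries held 20.9, 51.7, 1.77 and 1.42 CPM, a 36.6-fold range within 1 group. All other 12 libraries lay between 1.17 and 6.35 CPM. The R882H azacitidine libraries held 2.22, 1.17, 2.38, 3.92 and 4.42 CPM, and 4 of these 5 were above the lower pair of controls. The log2 difference in R882H was -2.75 (SE 0.80). It was -1.51 without R882H with NaCl replicate 2. Among libraries numbered 1 and 2 alone it was -4.42, which edgeR called, and among those numbered 3 and above alone it was 1.15, not called. In WT it was 0.26 (SE 0.89). The 2 high libraries were those with the high T cell sum and the high megakaryocyte and erythroid sum. Replicate 1 also had the highest summed level of 9 genes of group 2 innate lymphoid cells, 184.1 CPM, against 38.1 to 77.9 CPM in all libraries of the other 3 groups. Replicate 2, with the most Il1rl1, had a sum of 60.01 CPM, within that range. Replicate 2 also had the most Ms4a2 of the 16 libraries, 13.5 CPM. It had the most Slc45a3 too, 29.2 CPM against 2.69 to 11.7 CPM elsewhere. Its Cpa3, Fcer1a, Mcpt8 and Hdc, at 80.5, 6.37, 22.6 and 34.5 CPM, were within the range of the other libraries. Whether any of these cell types, or mast cells and basophils, had a part in the Il1rl1 level was not tested.

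**Figure D3:**
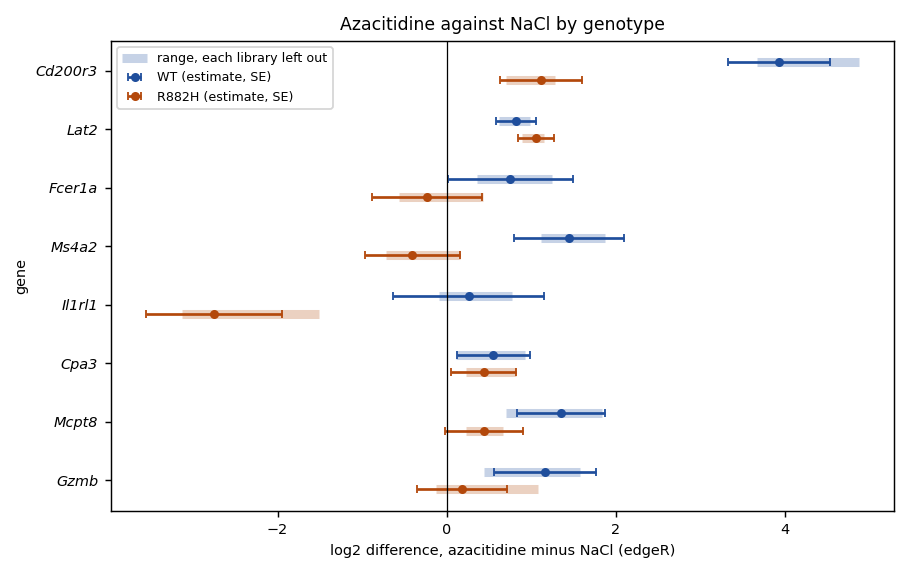
The log2 difference between azacitidine and NaCl from edgeR (x axis) in WT and R882H for 8 of the 10 genes (y axis), with points and whiskers for the estimate and SE and bands for the range when each library is left out in turn. The bands of Cd200r3, Lat2, Cpa3 and Mcpt8 keep their sign in both genotypes, while the R882H bands of Fcer1a, Ms4a2 and Gzmb and the WT band of Il1rl1 cross 0; Cma1 and Tpsb2 are not drawn because their control counts are at or near 0.

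Cpa3 (ENSMUSG00000001865, chr3:20215620-20242181), carboxypeptidase A3, is expressed from early mast cell and basophil progenitors on and was the most abundant granule protease of the list. It held 95.2, 111, 44.7 and 36.6 CPM in WT with NaCl and 114, 161 and 42.5 CPM in WT with azacitidine. In R882H it held 40.5, 80.5, 43.5 and 25.3 CPM with NaCl and 61.0, 69.1, 64.7, 57.0 and 69.7 CPM with azacitidine. Treated R882H libraries lay within a 1.22-fold range inside that of their controls, whereas treated WT libraries spanned 3.79-fold. The log2 difference was 0.56 (SE 0.44) in WT and 0.44 (SE 0.39) in R882H. In WT the libraries numbered 1 and 2 had means of 103.3 CPM with NaCl and 137.4 CPM with azacitidine. For those numbered 3 and above the values were 40.6 and 42.5 CPM, the latter from 1 library.

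Mcpt8 (ENSMUSG00000022157, chr14:56082166-56085273), a serine protease used as a basophil marker, held 27.2, 37.4, 9.49 and 6.84 CPM in WT with NaCl and 37.4, 89.2 and 28.8 CPM in WT with azacitidine. In R882H it held 29.0, 22.6, 15.8 and 14.2 CPM with NaCl and 25.2, 43.3, 18.3, 30.8 and 21.3 CPM with azacitidine. The groups overlapped in both genotypes. The log2 difference of 1.36 (SE 0.52) in WT became 0.70 without WT with azacitidine replicate 2, the library with the high neutrophil and monocyte sum, and in R882H it was 0.45 (SE 0.46). Another basophil protease, Prss34, did not share this pattern. It ranged from 0 to 103.8 CPM, with 0.024 CPM in R882H with azacitidine replicate 3 and 0 in WT with azacitidine replicate 1, where Mcpt8 stood at 18.3 and 37.4 CPM. With NaCl Prss34 stood at 0.869 to 15.4 CPM in WT and at 17.1 to 37.25 CPM in R882H. These groups did not overlap, as was so for 1.97% of all genes. Under azacitidine the genotypes overlapped.

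Gzmb (ENSMUSG00000015437, chr14:56258838-56262260) encodes granzyme B, a protease of cytotoxic lymphocytes that mast cells and basophils can also hold. It held 0.658, 1.39, 1.29 and 1.33 CPM in WT with NaCl and 2.33, 4.68 and 0.847 CPM in WT with azacitidine. In R882H it held 5.05, 1.31, 1.44 and 0.624 CPM with NaCl and 3.03, 2.64, 2.17, 1.52 and 2.57 CPM with azacitidine. Its highest library was R882H with NaCl replicate 1, the one with the high T cell sum. The log2 difference was 1.16 (SE 0.60) in WT and 0.19 (SE 0.53) in R882H, which became 1.08 without that library. The WT value became 0.44 without WT with azacitidine replicate 2, and -0.64 among libraries numbered 3 and above alone, where 1 treated WT library remains.

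Cma1 and Tpsb2, the chymase and tryptase of connective tissue mast cells, had 3 or more counts in 6 and 5 of the 16 libraries and 0 counts in 7 and 11. Cma1 (ENSMUSG00000022225, chr14:55941451-55944675) had 1, 0, 0 and 0 counts in R882H with NaCl and 271, 0, 43, 0 and 33 counts in R882H with azacitidine. In WT it had 14, 17, 0 and 1 counts with NaCl and 1, 24 and 0 with azacitidine. Tpsb2 (ENSMUSG00000033825, chr17:25366305-25369098) had no count in the 4 R882H NaCl libraries and 547, 0, 91, 0 and 33 counts with azacitidine. In WT it had 8, 0, 0 and 0 counts with NaCl and 0, 41 and 0 with azacitidine. So 3 of the 5 treated R882H libraries held both, and the other two held neither.

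In CPM the treated R882H libraries held 5.78, 0, 1.01, 0 and 0.815 of Cma1 and 11.7, 0, 2.14, 0 and 0.815 of Tpsb2. Replicate 1 held 76.0% of the group's summed Cma1 and 79.8% of its Tpsb2. Without it the group means were 0.457 ± 0.534 and 0.739 ± 1.01 CPM (SD, n = 4). Pooled over libraries, Cma1 was 244-fold higher with azacitidine than with NaCl in R882H, with a 95% exact interval of 43.5 to 9666 from 1 and 347 counts. For Tpsb2, at 0 counts in the controls, the pooled level with azacitidine was 157-fold above a floor of 3 counts over the control group. The interval and the floor treat reads as independent molecules, which reads without molecular identifiers are not, so even counting error may be larger than they allow. They say nothing of the spread between libraries, in which the groups overlapped.

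**Figure D4:**
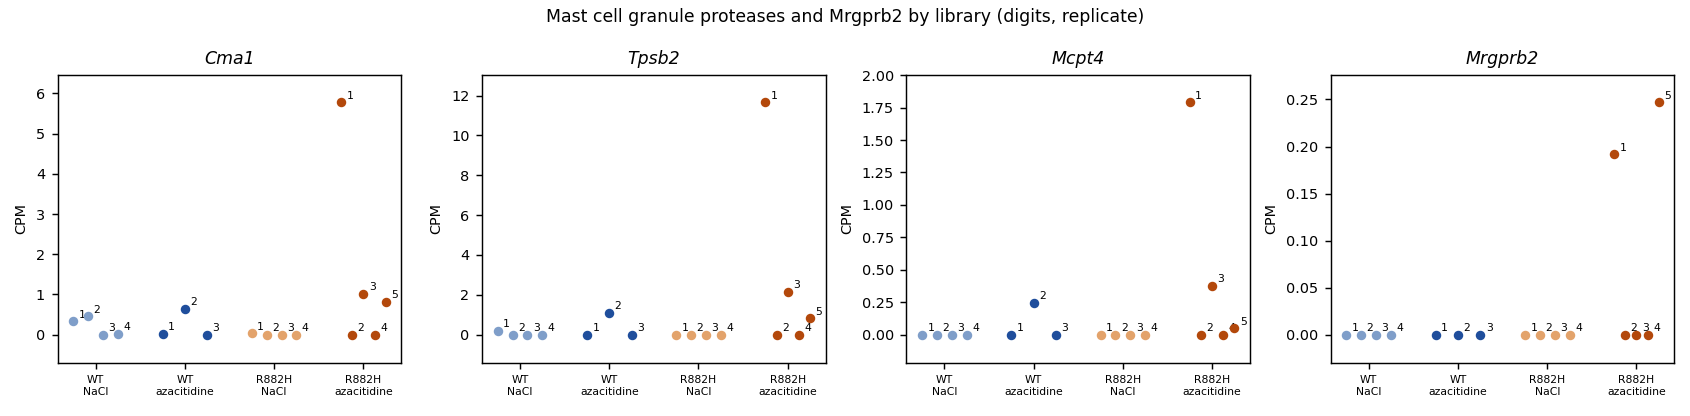
CPM (y axis, own scale per gene) of the proteases Cma1, Tpsb2 and Mcpt4 and of the receptor Mrgprb2 in each library of the 4 groups (x axis), with replicate numbers. For Cma1, Tpsb2 and Mcpt4 the treated libraries off the zero line are largely R882H with azacitidine replicates 1, 3 and 5 and WT with azacitidine replicate 2. WT with NaCl replicates 1 and 2 also hold Cma1, and replicate 1 of that group also holds Tpsb2. Mrgprb2 is off the zero line only in R882H with azacitidine replicates 1 and 5. Replicate 1 of R882H with azacitidine is highest for Cma1, Tpsb2 and Mcpt4.

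Libraries with Cma1 and with Tpsb2 were largely shared. At 3 or more counts, 5 libraries held both, 1 held Cma1 alone, none held Tpsb2 alone and 10 held neither. Mcpt4, a chymase 114954 bases from Cma1 that marks connective tissue mast cells, was seen in 4 of these 5 libraries, at 1.79, 0.377 and 0.0494 CPM in R882H with azacitidine replicates 1, 3 and 5 and 0.244 CPM in WT with azacitidine replicate 2. Mrgprb2, the mast cell receptor for cationic peptides, was seen in R882H with azacitidine replicates 1 and 5, at 0.192 and 0.247 CPM. Tpsg1, a transmembrane tryptase 175 bases from Tpsb2, had 9 counts in all, within 3 of the 5 libraries. Cpa3 and Fcer1a did not stand out in R882H with azacitidine replicate 1, the library with most Cma1 and Tpsb2. They stood there at 61.0 and 5.12 CPM, within the range of the other 4 treated R882H libraries.

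The chymase Cma1, Mcpt8 and Gzmb lie in 1 protease cluster on chromosome 14, and their levels did not move as a block. Mcpt8 is 137491 bases and Gzmb 314163 bases from Cma1, and both had counts in every library. In the same cluster, Ctsg, cathepsin G of neutrophil and mast cell granules, reached 888.9 CPM in WT with azacitidine replicate 2, with group means of 202 ± 148 and 510 ± 387 CPM in WT with NaCl and azacitidine (SD, n = 4 and 3). In R882H these means were 155 ± 120 and 152 ± 26.6 CPM (SD, n = 4 and 5).

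Per length, the order of the 10 genes was steep and much the same in all groups. Over the 16 libraries the median FPKM was 39.97 for Cpa3, 39.9 for Lat2 and 25.3 for Mcpt8. It was 3.94 for Fcer1a, 1.76 for Ms4a2, 0.999 for Gzmb and 0.368 for Il1rl1, and 0.0719, 0.0206 and 0 for Cd200r3, Cma1 and Tpsb2. In all 4 groups Mcpt8 ranked 3 and its lowest library was above the highest of Fcer1a, the next in rank, so that 3 genes formed an upper tier. Ranges of most neighbours in the order overlapped. Cpa3 ranked above Lat2 in the WT groups and below it in the R882H groups, with overlapping ranges. In R882H with azacitidine Tpsb2 and Cma1 ranked above Il1rl1 and Cd200r3 by median.

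**Figure D5:**
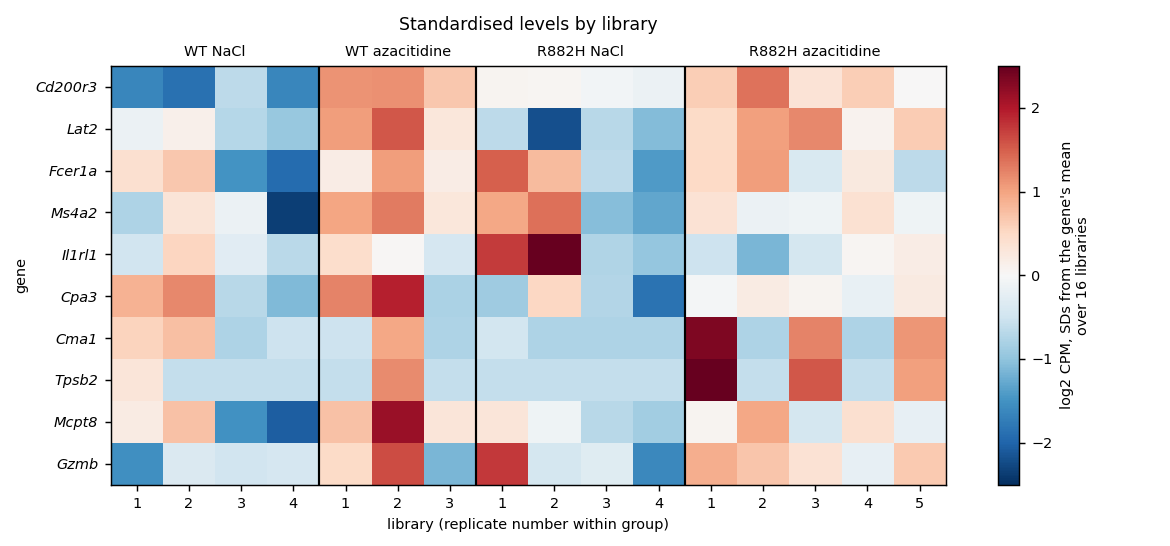
Log2 CPM of each of the 10 genes (rows), shown as SDs from the gene's mean over the 16 libraries (colour), by library (columns, replicate numbers within the 4 groups). Cd200r3 is lowest in WT with NaCl, Lat2 is higher in the treated than in the NaCl libraries of each genotype, Cma1 and Tpsb2 share their high libraries, and WT with azacitidine replicate 2 is above the mean in every row, though by little for Il1rl1.

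Taking the 10 genes side by side with all 18341 genes tested, in R882H 7 were higher and 3 lower with azacitidine, with a median log2 difference of 0.44. Over all genes 44.3% were higher, with a median of -0.04. None of the 10 was called by edgeR's quasi-likelihood test at a Benjamini-Hochberg adjusted p under 0.05, where 0.00545% of all genes were called. DESeq2 called 96 of all genes, with Lat2 among them. At an unadjusted p under 0.05 the list had 4 higher and 1 lower, with 6.69% of all genes called. Lat2 alone had groups that did not overlap, as did 1.57% of all genes. Since the list was drawn from these differences, nothing is read from its counts.

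In WT all 10 genes had a higher fitted value with azacitidine, with a median log2 difference of 0.99. Over all genes 51.8% were higher, with a median of 0.01. None was called by edgeR at an adjusted p under 0.05, and 0% of all genes were, though 1104 genes had an unadjusted p under 0.05. DESeq2 called 55 of all genes, with Cd200r3 among them, and edgeR called Cd200r3 without WT with NaCl replicate 3 and without WT with azacitidine replicate 3. At an unadjusted p under 0.05 the list had 4 genes, all higher, with 6.02% of all genes called. Cd200r3 and Lat2 had groups that did not overlap, as did 5.73% of all genes. WT with azacitidine replicate 2 was the highest library of its group for 9 of the 10 genes, with Il1rl1 as the exception. The 2 treatment comparisons share no library.

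The response in R882H minus that in WT was negative for 7 of the 10 genes, with a median of -0.94 on the log2 scale. No gene of the whole table was called for it by edgeR (0%), with 1114 at an unadjusted p under 0.05 and 16 called by DESeq2. For R882H against WT with NaCl, 6 genes were higher and 4 lower, and none was called, with 0.00545% of all genes called. Cd200r3 alone did not overlap, as did 1.97% of all genes. For R882H against WT with azacitidine, 2 were higher and 8 lower, and none was called, again with 0.00545% of all genes called. None of the list had groups without overlap there, against 10.7% of all genes. These comparisons share libraries with those of treatment. Averaged over both genotypes, the azacitidine difference was positive for 9 of the 10. Cd200r3, at 2.53 (SE 0.39), was 1 of 4 genes called (0.0218% of all genes), and Lat2, at 0.94 (SE 0.16), was not. The Cd200r3 call was held in 6 of the 16 fits that left out 1 library.

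The remaining genes of these cells, from lists drawn up for this work, did not pass. None of 12 tested granule and mediator genes was called in either genotype, and at an unadjusted p under 0.05 none differed in R882H and 2 were higher and 1 lower in WT, where 6.02% of all genes had such a p. Rab27b, which docks granules, stood at 18.3 ± 4.29 and 29.8 ± 10.6 CPM in WT with NaCl and azacitidine (SD, n = 4 and 3). Hpgds, the prostaglandin D2 synthase, stood at 6.78 ± 1.89 and 2.30 ± 1.77 CPM. Its WT groups did not overlap, as was so for 5.73% of all genes. Of 19 tested surface receptors none was called. At an unadjusted p under 0.05, 1 was higher and 1 lower in R882H, and 2 were higher and 1 lower in WT. Of all genes 6.69% and 6.02% had such a p. The lower receptor in R882H was Enpp3, and the higher one Cd69. Il3ra, the α chain of the receptor for interleukin-3, a growth factor of both lineages, stood at 15.5 ± 2.49 and 29.5 ± 14.9 CPM in WT and at 17.0 ± 3.71 and 18.3 ± 3.27 CPM in R882H. Cd69, an early activation antigen, stood at 24.4 ± 9.48 and 48.1 ± 10.6 CPM in R882H and at 41.9 ± 2.74 and 39.5 ± 22.2 CPM in WT. Its R882H groups did not overlap, as was so for 1.57% of all genes.

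Of the 24 genes of IgE receptor signalling, all tested, none was called in any comparison, with a median log2 difference of 0.20 in R882H and -0.09 in WT. At an unadjusted p under 0.05, 1 gene, Rasgrp1, was lower in R882H and none differed in WT. Of all genes 6.69% and 6.02% had such a p. Lyn, the kinase that starts the cascade, stood at 74.6 ± 11.6 and 88.2 ± 7.16 CPM in R882H with NaCl and azacitidine (SD, n = 4 and 5). Lat, the adaptor related in function to Lat2, stood at 117 ± 38.8 and 134 ± 20.2 CPM, and its groups overlapped. Of 10 tested basophil genes none was called. Ifitm1 was the one with an unadjusted p under 0.05 in R882H, at 279.5 ± 107 and 179 ± 35.0 CPM, where 6.69% of all genes had such a p. Its WT values of 320 ± 37.0 and 216 ± 18.5 CPM did not overlap, as was so for 5.73% of all genes.

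Of the 18 transcription factors of the lineages, all tested, none was called, and at an unadjusted p under 0.05, 3 were higher in R882H and 2 in WT, with 6.69% and 6.02% of all genes at such a p. Gata2 stood at 352 ± 91.0 and 487.5 ± 69.8 CPM in R882H and 368 ± 65.6 and 436 ± 45.4 CPM in WT, with overlap in both. Nfil3, a regulator of basophil and other innate cytokine genes, stood at 12.2 ± 4.70 and 20.2 ± 3.16 CPM in R882H. Cebpa, which favours granulocytes, stood at 25.1 ± 4.24 and 47.5 ± 25.9 CPM in WT. Mitf, a regulator of mast cell proteases, was low, at 1.27 to 6.21 CPM.

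None of 14 neutrophil and monocyte genes was called by edgeR in WT. Their fitted values were higher with azacitidine for 13, with a median log2 difference of 1.14, against 51.8% of all genes higher and a median of 0.01. At an unadjusted p under 0.05, 8 of the 14 were higher, against 732 higher and 372 lower of all 18341 genes (6.02%). Their summed level was 2856 to 5088 CPM in the WT NaCl libraries and 2968 to 11630 in the treated ones, which overlapped. In R882H the median was 0.13. Eosinophil genes summed to 57.4 CPM or less in every library, with Epx or Ear6 at 0 in some groups. The part of other cells in the levels of the 10 genes was not tested.

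For 7 genes with a mean of 1 CPM or more, the 3 genes with the closest pattern over the 16 libraries were sought by Pearson r of log2 CPM, where libraries share depth, treatment and genotype. Cpa3 was followed by Siglecf (r 0.929), Ctsg (0.915) and Mrgpra2b (0.913), and Mcpt8 by Treml1 (0.913), Clec12a (0.859) and Cebpd (0.859). Lat2 was followed by Gm37549 (0.937), Tec (0.921) and Dirc2 (0.919). Tec, a cytoplasmic kinase, had a log2 difference of 0.51 in both genotypes (SE 0.14 in R882H and 0.16 in WT). Il1rl1 was followed by Mgll (0.972), Aqp1 (0.95) and Spon2 (0.948), and its pattern rests on the 2 high R882H NaCl libraries. Ms4a2 was followed by Olfr414 (0.940), Csrp3 and Mir8116, Fcer1a by Nudt22 (0.918), Gm9803 and Khk, and Gzmb by Fcgr4 (0.801), Hoxb2 and Mtus1. Measured after removing group means, the r of Cpa3 with Siglecf was 0.910 and that of Lat2 with Tec 0.743.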

How the data were processed

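The study's submitters sequenced amplified cDNA of LSK cells (RNA with a RIN under 8 left out, per the labels' protocols) and deposited whole-number counts per gene and FPKM for each of 16 libraries. Per the submitters' processing notes they used HISAT2 2.0.5, featureCounts 1.6.2, edgeR 3.26.6 and GRCm38 (mm10). The length column that the authors deposited is another quantity, the bases counted per gene. The deposited FPKM equal the deposited counts over that length, scaled by 1 factor per library. The strand setting is not given in the sources used here. Of 30141 gene identifiers 30100 had a symbol in GENCODE M21, and 1201 repeat families were left out.

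Counts were scaled by TMM and filtered with filterByExpr on the 4 groups, which left 18341 genes. The quasi-likelihood test of edgeR 4.0.16 (R 4.3.3) used the 16 libraries together, with a mean for each group. A gene was called at a Benjamini-Hochberg adjusted p under 0.05, with the adjustment made across the whole table. Libraries of a group varied by a biological coefficient of variation of 40.7% (common dispersion 0.166). Tested on simulated data with 18341 genes, this fit recovered 28% of 2-fold and 86% of 4-fold differences for azacitidine in R882H, and 24% and 80% in WT. The simulated differences were placed in genes with a mean of 1 CPM or more. These rates therefore do not cover Cd200r3, Cma1 and Tpsb2, whose means lie below that. SD covers the spread between the libraries of a group. The SE of a log2 difference was taken as its absolute value over the square root of the F of its quasi-likelihood test. It rests on a spread shared by the 4 groups and not on that of the groups compared alone. Intervals are exact Clopper-Pearson at the 95% level, and a count of 0 was set to a floor of 3 counts over the group.

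Alternatives were DESeq2 1.42.0, RLE scaling, limma-voom (limma 3.58.1), no filter on low counts, a replicate block, and replicate numbers 1 and 2 or 3 and above alone. The set numbered 3 and above holds 1 WT azacitidine library. Further alternatives left out each library in turn, or replicate 1 of both R882H with NaCl and WT with azacitidine. Same-numbered libraries of different groups were checked as pairs. All 4 pairs between the NaCl groups correlated above 0.1 (r 0.101 to 0.342), as did 5 of the other 17 pairs. Libraries of different numbers were not correlated, so these r lack a baseline and cannot decide whether the numbers pair the libraries. The main fits took no groups as paired, and the replicate block was an alternative. The lowest chi-square per gene between 2 libraries of a group was 38.4, so no library was a copy.

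The members, the other gene lists and the alternatives were chosen with earlier results of these data known. Named in the text were all 10 members, the 3 genes most alike to each member with a mean of 1 CPM or more, and neighbours in the same gene families. Some, but not all, of the 2 genes with the lowest p of each list and genotype were named as well. Other genes named (Fcer1g, Hdc, Lat, Mitf, Ctsg, Mrgprb2, Prss34, Slc45a3, Epx, Ear6 and Rfc2) were chosen after their values were seen. Of the listed genes 6 are not analysed here.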

Additional observations from a re-analysis of the deposited data

Results flagged for a closer look

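In groups of 4 or 5 libraries, a library was singled out where its gap to the nearest value, relative to the whole range, passed Dixon's 95% limit. Of 29 groups examined, 6 had such a library. Chance gives about 1 in 20, a rate that does not hold where libraries are at 0. In 2 of the 6, Cma1 in R882H with NaCl and Tpsb2 in WT with NaCl, the other 3 libraries were at 0, so that any count would have passed.

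Cd200r3 had 1 high library in WT with NaCl, replicate 3 at 0.203 CPM against 0.0470 for the next. Cma1 was found in 1 of the 4 R882H NaCl libraries, replicate 1 at 0.0295 CPM, which is 1 count. Cma1 and Tpsb2 shared the high library of R882H with azacitidine, replicate 1, at 5.78 CPM of Cma1 against 1.01 for the next and 11.7 CPM of Tpsb2 against 2.14 for the next. Tpsb2 had 1 library above 0 in WT with NaCl, replicate 1 at 0.188 CPM, from 8 counts. Gzmb had 1 low library in WT with NaCl, replicate 1 at 0.658 CPM against 1.29 for the next.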

How the results depend on the processing

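Counts of genes called moved most with the tool and with the libraries used. DESeq2 called 96 genes for azacitidine in R882H (edgeR 1), 55 in WT (0), 16 for the difference between these responses (0), 35 for R882H against WT with NaCl (1), 20 with azacitidine (1) and 166 for azacitidine averaged over genotypes (4). In libraries numbered 1 and 2 alone the counts were 53 in R882H, 4 for the difference, 9 for the genotypes with azacitidine and 0 averaged. In those numbered 3 and above alone they were 233 in R882H, 1 in WT, 2 for the difference, 2 for the genotypes with NaCl, 2 with azacitidine and 860 averaged. Without the filter on low counts, and with replicate 1 of both R882H with NaCl and WT with azacitidine left out, the counts of 1 in R882H and for both genotype comparisons fell to 0. With the replicate block 0 genes were called in R882H and 0 for the genotypes with azacitidine, and limma-voom called 0 for the latter. For the genotypes with NaCl, where all 4 same-numbered pairs correlated above 0.1, the replicate block called 1 gene, as without it, and no member. With the block the R882H differences of Fcer1a and Ms4a2 turned to 0.33 and 0.17. With each library left out in turn the counts ran from 0 to 1 in R882H, 0 to 7 in WT, 0 to 1 for both genotype comparisons and 2 to 46 averaged. Among members, 24 of 60 log2 differences had the opposite sign under at least 1 alternative, and between azacitidine and NaCl 4 genes (Cd200r3, Lat2, Cpa3 and Mcpt8) had none in either genotype. The averaged call of Cd200r3 was held with DESeq2, RLE scaling and no filter, and in 6 of 16 fits that left out 1 library, namely replicate 1 or 2 of R882H with NaCl, 2 or 5 of R882H with azacitidine, or 3 of either WT group. It was lost with limma-voom, with the replicate block, within both sets of numbers, with replicate 1 of both R882H with NaCl and WT with azacitidine left out, and in the other 10 such fits. The set numbered 3 and above is left aside for Lat2, since it holds 1 WT azacitidine library. Among the other settings, Lat2 passed for the averaged difference with DESeq2, without the filter and in 3 of 16 such fits. Depth limits Tpsb2, with no count in 7 of 8 NaCl libraries, Cma1, with 0 or 1 count in 6 of 8, and Cd200r3, with 1 to 8 counts in WT with NaCl.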
